A study of Homo sapiens with 4 samples.

Results

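Antisense long noncoding RNAs were chosen by their symbol, which ends in -AS and a number, and by their measured FPKM (counts divided by exonic length and by the total counts of the library), which had to reach 1 FPKM somewhere among the 4 libraries. Of 1768 antisense RNAs among the 61806 genes of the table, 429 met this limit, with EPB41L4A-AS1 left out by the rule. The level chose the members, so their presence at 1 FPKM is a description. Members just inside the limit included SLC38A4-AS1 and PSPC1-AS2, each with a highest level of 1 FPKM, and those just outside were CALCRL-AS1 at 0.99 FPKM, and ATOX1-AS1 and OXR1-AS1, both at 0.98 FPKM. The libraries came from JJ012, a human chondrosarcoma line, and 143B, a human osteosarcoma line, both grown detached in suspension, each as an untreated control and after 1 mM melatonin for 72 h. Each condition was 1 library of poly(A)-selected RNA, so no difference below has a replicate check and none was tested for significance. Melatonin is the hormone of the pineal gland, given here at a pharmacological dose.

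A natural antisense RNA is transcribed from the strand opposite to another gene, after which it is named. Some start inside the gene and run back through it, some share a promoter region with the gene and run away from it, and some meet it at the 3' ends. Known examples act on the chromatin or the mRNA of the gene they overlap, on microRNAs or on proteins elsewhere, and many have no known function. Transcripts that leave a promoter in the antisense direction are often ended early and degraded in the nucleus by the RNA exosome, while those carrying a poly(A) tail can reach a poly(A)-selected library.

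Of the 429 members, 421 had their named gene in the table (412 distinct genes), and the other 8 were 7 RNAs named after the HOXB and HOXC clusters and MYL12-AS1. By the authors' positions, 171 members overlapped the named gene at its 5' end, 131 lay inside it, 70 overlapped its 3' end, and 23 spanned it. A further 17 ran away from it with a gap of up to 1000 bases. Release 29 of the GENCODE annotation typed 351 members as antisense, 36 as lincRNA and 28 as processed transcript. The members were shorter than their named genes, with a median exonic length of 1918 bases (range 130 to 24071) against 5888 bases. They were also lower than their named genes, with 324 members below and 97 above the named gene's mean FPKM over the 4 libraries. An exonic base of the member lay over an exon of the other strand in all but 122 members, and for 34 members over 50% of the exonic bases did. The strand setting of the counting is not given in the sources used here, so reads of overlapping genes cannot be assigned to a strand with certainty. Of 8 antisense RNAs of the table with at least 95% of their exonic bases over opposite exons and a named gene of at least 10 FPKM, 7 had 0 counts in all 4 libraries and the other reached 0.66 FPKM.

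RefSeq promoter windows (GRCh38.p14, 250 bases before to 50 bases after the start) were matched to 309 members. These windows had a median GC content of 64.3% and a median of 21 CG dinucleotides, against 58.3% and 14 in all 27305 RefSeq windows. The 336 windows of the named genes gave 66.3% and 26. TATAAA on either strand was found in 6.47% of the members' windows, 5.06% of the named genes' windows and 12.0% of all windows. In 37 windows the named gene also started, on the other strand, and in 35 of these it started upstream of the antisense start. Below are 4 such windows, of members described later, shown because antisense RNA and mRNA leave the same stretch of DNA. Capitals run from the start of the named gene to the start of the antisense RNA. They lie at chr3:149377528-149377827 for TM4SF1-AS1, chr21:32392883-32393182 for URB1-AS1, chr12:123364698-123364997 for SBNO1-AS1 and chr2:27356515-27356814 for GTF3C2-AS2, all on the plus strand.
TM4SF1-AS1: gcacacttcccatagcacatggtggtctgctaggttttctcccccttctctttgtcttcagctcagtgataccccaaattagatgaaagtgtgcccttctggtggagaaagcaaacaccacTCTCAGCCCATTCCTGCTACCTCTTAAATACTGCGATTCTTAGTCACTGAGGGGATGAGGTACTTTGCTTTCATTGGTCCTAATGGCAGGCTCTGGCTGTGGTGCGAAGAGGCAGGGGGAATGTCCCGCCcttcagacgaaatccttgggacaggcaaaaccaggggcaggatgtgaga
URB1-AS1: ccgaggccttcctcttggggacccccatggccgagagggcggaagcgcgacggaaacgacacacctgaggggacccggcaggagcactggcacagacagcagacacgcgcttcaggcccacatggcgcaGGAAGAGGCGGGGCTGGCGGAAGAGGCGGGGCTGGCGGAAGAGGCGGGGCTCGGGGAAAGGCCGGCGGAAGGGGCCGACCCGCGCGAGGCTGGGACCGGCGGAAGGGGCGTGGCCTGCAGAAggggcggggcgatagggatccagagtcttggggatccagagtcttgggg
SBNO1-AS1: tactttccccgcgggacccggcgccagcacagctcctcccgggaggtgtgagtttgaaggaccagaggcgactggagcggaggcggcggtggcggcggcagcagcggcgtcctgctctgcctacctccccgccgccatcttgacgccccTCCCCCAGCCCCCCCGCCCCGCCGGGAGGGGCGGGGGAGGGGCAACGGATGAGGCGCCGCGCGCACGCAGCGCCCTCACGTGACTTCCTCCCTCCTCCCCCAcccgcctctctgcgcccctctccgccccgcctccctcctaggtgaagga
GTF3C2-AS2: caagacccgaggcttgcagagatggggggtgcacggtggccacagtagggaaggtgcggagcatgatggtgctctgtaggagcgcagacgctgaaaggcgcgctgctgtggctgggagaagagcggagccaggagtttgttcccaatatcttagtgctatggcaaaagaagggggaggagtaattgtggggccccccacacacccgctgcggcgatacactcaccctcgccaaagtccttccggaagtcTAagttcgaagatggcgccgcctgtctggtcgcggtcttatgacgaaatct

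The starts are 129 bases apart in the TM4SF1-AS1 window, 121 in the URB1-AS1 window, 101 in the SBNO1-AS1 window and 1 in the GTF3C2-AS2 window. The URB1-AS1 and SBNO1-AS1 windows were rich in CG dinucleotides, with 28 and 32, and the TM4SF1-AS1 window held 4. The TM4SF1-AS1 and GTF3C2-AS2 windows held CCAAT on either strand, which 35.7% of all windows did. The SBNO1-AS1 window held CACGTG, found in 7.43% of all windows, and the GTF3C2-AS2 window held CCGGAAG, found in 10.7%. The RefSeq start need not be the start of the gene in the authors' table.

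The libraries held 15889564 to 19218343 counts, of which 0.285% to 0.395% fell on the members. The median member had 61 counts in the JJ012 control, 42 in JJ012 with melatonin, 25 in the 143B control and 30 in 143B with melatonin, and 3 counts corresponded to 0.156 to 0.189 CPM (counts scaled to the library total). Intervals below are exact 95% intervals of the log2 CPM ratio and cover counting error only. Of 8 chondrocyte markers, COL2A1 was at 0 counts in both JJ012 libraries and ACAN reached 0.02 FPKM there, while SOX9 had 15.06 and 6.16 FPKM. The 8 chondrocyte markers summed to 39.0 FPKM in the JJ012 control, 9.76 with melatonin, and 16.7 and 13.3 in 143B. COL11A1 alone made up 22.92 and 3.24 FPKM of the JJ012 sums and was at 0 counts in both 143B libraries. SOX9 made up 15.48 and 12.09 FPKM of the 143B sums. The 8 osteoblast markers summed to 107 and 68.3 FPKM in JJ012 and to 6.97 and 5.08 FPKM in 143B, but SPP1 alone made up 79.39 and 64.5 FPKM of the JJ012 sums. COL1A1 went from 10.92 to 0.77 FPKM and COL1A2 from 12.48 to 0.14 FPKM with melatonin in JJ012, and neither passed 0.49 FPKM in 143B. SP7, IBSP and ALPL were at or below 0.36 FPKM in all 4 libraries, while RUNX2 (3.02 and 4.28 FPKM) and BGLAP (0.81 and 1.44 FPKM) were lower in the JJ012 control than in the 143B control. The 7 markers of other cells summed to 17.6 and 10.1 FPKM in JJ012 and to 13.5 and 11.8 FPKM in 143B, and CD3E, a T-cell gene, had 9.73 FPKM in the JJ012 control. The part of these markers in the results was not tested, and in bulk RNA fewer cells of a kind and less RNA per cell cannot be told apart.

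The members with the highest mean level were SLC9A3-AS1, KLC1-AS1, TMEM132D-AS1, FGD5-AS1, HNRNPK-AS1 and GABPB1-AS1. At least 1 FPKM was reached in all 4 libraries by 105 members, in 3 by 69, in 2 by 145 and in a single library by 110. Only 35 members reached 10 FPKM and 12 reached 20 FPKM in a library. SLC9A3-AS1, named after a sodium-proton exchanger gene, had 19.45 FPKM in the JJ012 control, 20.1 with melatonin, 18.04 in the 143B control and 29.41 with melatonin. FGD5-AS1 was similar in all libraries, at 18.85 and 19.52 FPKM in JJ012 and 14.92 and 16.31 FPKM in 143B, while FGD5 itself, an exchange factor gene of endothelial cells, did not pass 0.1 FPKM. TMEM132D-AS1 was a JJ012 transcript, with 44.13 and 30.47 FPKM there and 0 and 0.03 FPKM in 143B.

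**Figure D1:**
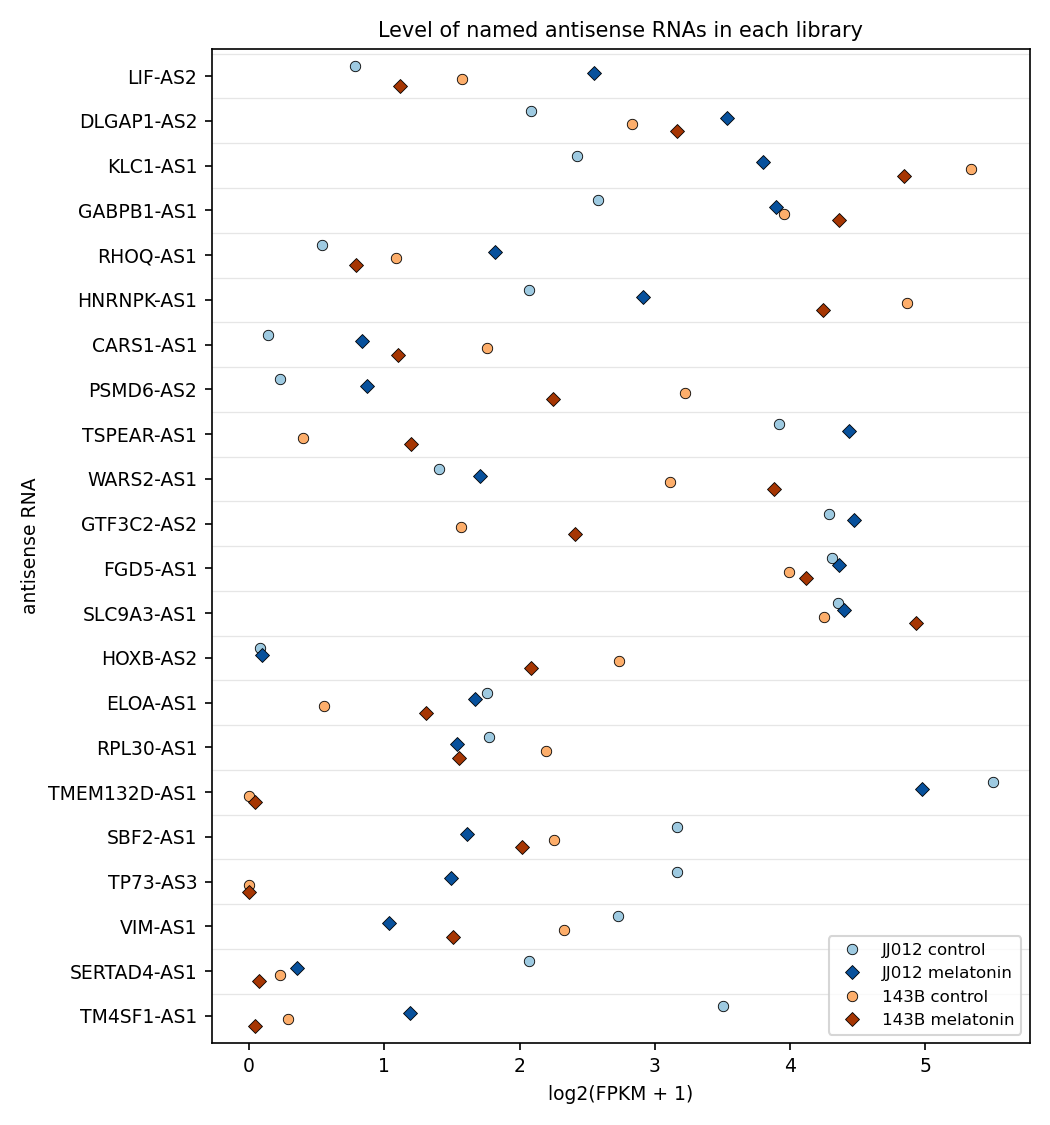
Level of the 22 antisense RNAs with the highest mean or the largest change in a line, as log2(FPKM + 1) in each of the 4 libraries (circles, controls; diamonds, melatonin), ordered by the JJ012 log2 fold change. TM4SF1-AS1 stands at 10.34 FPKM in the JJ012 control and 1.28 with melatonin, and LIF-AS2 at 0.72 and 4.84 FPKM.

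The first comparison set melatonin against control in JJ012. Of 351 members with at least 1 FPKM in either library, 50 were higher and 87 lower by the limit used here, a log2 fold change of 0.58 or more in size on the log2(FPKM + 1) scale. That is 14.2% higher and 24.8% lower, where all 15794 genes tested gave 19.6% higher and 18.6% lower. The median log2 fold change was -0.15 for the members and 0.01 for all genes. The counting interval excluded 0 for 221 members, 83 above and 138 below, against 72.2% of all genes, and 129 of the 137 called members had an interval on the called side. Of the 126 members tested through a single library, 65 were called, which the filter favours. The split of calls depended on the scaling. Once the running median over exonic length was subtracted, 67 were higher and 61 lower (19.1% and 17.4%), where all genes gave 18.1% and 16.4%. On TPM, 116 of 399 were higher and 90 lower (29.1% and 22.6%), where all genes gave 33.0% and 19.9%. The median log2 fold change on TPM was 0.21 for all genes and 0.10 for the members.

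The largest rises in JJ012 among members with at least 50 counts in a library were of LIF-AS2, DLGAP1-AS2, KLC1-AS1, GABPB1-AS1 and RHOQ-AS1. Of the members with fewer counts, 4 rose by more than KLC1-AS1, up to a log2 fold change of 2.39 for ATP1B3-AS1 (3 and 39 counts). LIF-AS2 overlaps the 5' end of LIF, the gene of the cytokine leukemia inhibitory factor, and went from 0.72 FPKM (11 counts) to 4.84 FPKM (62 counts), a log2 fold change of 1.76. DLGAP1-AS2 went from 3.23 to 10.59 FPKM (log2 fold change 1.45), while DLGAP1, which encodes a postsynaptic scaffold, stayed at 0.01 FPKM. A neighbour inside the same gene, DLGAP1-AS1, was lower, at 8.14 FPKM in the control and 4.09 with melatonin; it lies outside the naming rule and was chosen after its values were seen. KLC1-AS1, inside the kinesin light chain gene KLC1, went from 4.37 to 12.93 FPKM (log2 fold change 1.38). GABPB1-AS1 overlaps the 5' end of GABPB1, which encodes a subunit of an ETS-family transcription factor complex, and had 1651 counts (4.98 FPKM) in the control and 3858 (13.85 FPKM) with melatonin. Its CPM ratio was 2.78, and the log2 interval of 1.39 to 1.56 was the narrowest of these members. GABPB1 itself had 2.26 and 2.03 FPKM. In the authors' GRCh38 positions, LIF-AS2 lies at chr22:30246205-30246998, DLGAP1-AS2 at chr18:3603000-3610103 and GABPB1-AS1 at chr15:50354944-50372202, all on the plus strand, and KLC1-AS1 at chr14:103682362-103684015 on the minus strand.

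With the same minimum of 50 counts in a library, the largest falls in JJ012 were of TM4SF1-AS1, SERTAD4-AS1, VIM-AS1, TP73-AS3 and SBF2-AS1. Below that minimum, UST-AS2 (46 and 2 counts), MAFA-AS1 (49 and 3) and FIBCD1-AS1 (28 and 1) had log2 fold changes of -3.32, -2.29 and -1.88, the former pair named after their values were seen. TM4SF1-AS1, which leaves the promoter of the tetraspanin-like membrane protein gene TM4SF1 in the window printed above, had 463 counts (10.34 FPKM) in the control and 48 (1.28 FPKM) with melatonin, a log2 fold change of -2.31. SERTAD4-AS1 went from 3.19 FPKM (67 counts) to 0.28 FPKM (5 counts), with a log2 fold change of -1.71. VIM-AS1 overlaps the 5' end of VIM, which encodes the intermediate filament protein vimentin, and had 230 counts (5.63 FPKM) and 36 (1.05 FPKM), a log2 fold change of -1.69. TP73-AS3, inside the p53-family gene TP73, went from 7.94 FPKM (115 counts) to 1.81 FPKM (22 counts), with a log2 fold change of -1.67. SBF2-AS1 meets the 3' end of SBF2, a myotubularin-related gene, and went from 7.96 FPKM (792 counts) to 2.06 FPKM (172 counts), a log2 fold change of -1.55. TM4SF1-AS1 lies at chr3:149377778-149386583 and SBF2-AS1 at chr11:9758268-9811335, on the plus strand, and VIM-AS1 at chr10:17214239-17230018, SERTAD4-AS1 at chr1:210231456-210234047 and TP73-AS3 at chr1:3658938-3668772, on the minus strand.

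In JJ012 the calls moved with exonic length. Members under 1000 bases were called lower in 36.5% and higher in 26.0% of 96, and those of 4000 bases or more in 7.87% and 8.99% of 89. All genes under 1000 bases were called lower in 30.2%, and those of 4000 bases or more in 9.69%. Among all genes of 4000 bases or more, 22.8% were called higher. The share of long members called higher depended on the scaling, at 27.3% of 99 on TPM, 19% of 100 on CPM and 19% of 100 with TMM factors, where all genes of that length gave 38.1%, 24.4% and 28.3%. In the 3 shorter classes the shares called higher were closer, at 26.0%, 8.86% and 11.5% of members and 28.9%, 11.1% and 9.43% of all genes. With the trend over length removed, 6 of these 89 long members were higher and 15 lower (6.74% and 16.9%, against 14.5% and 14.5% of all genes of that length). The 8 long members that were higher were CDKN2B-AS1, GABPB1-AS1, HIF1A-AS3, MAGI2-AS3, NNT-AS1, OIP5-AS1, THAP9-AS1 and TMEM9B-AS1, of which MAGI2-AS3, THAP9-AS1 and TMEM9B-AS1 lie outside the naming rule and were named after their values were seen. In 143B, the shares were 26.9% lower and 14.1% higher in 78 members under 1000 bases, where all genes of that length gave 26.8% and 19.8%. In 62 members of 4000 bases or more they were 0% lower and 4.84% higher, against 2.12% and 2.15% of all such genes.

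**Figure D2:**
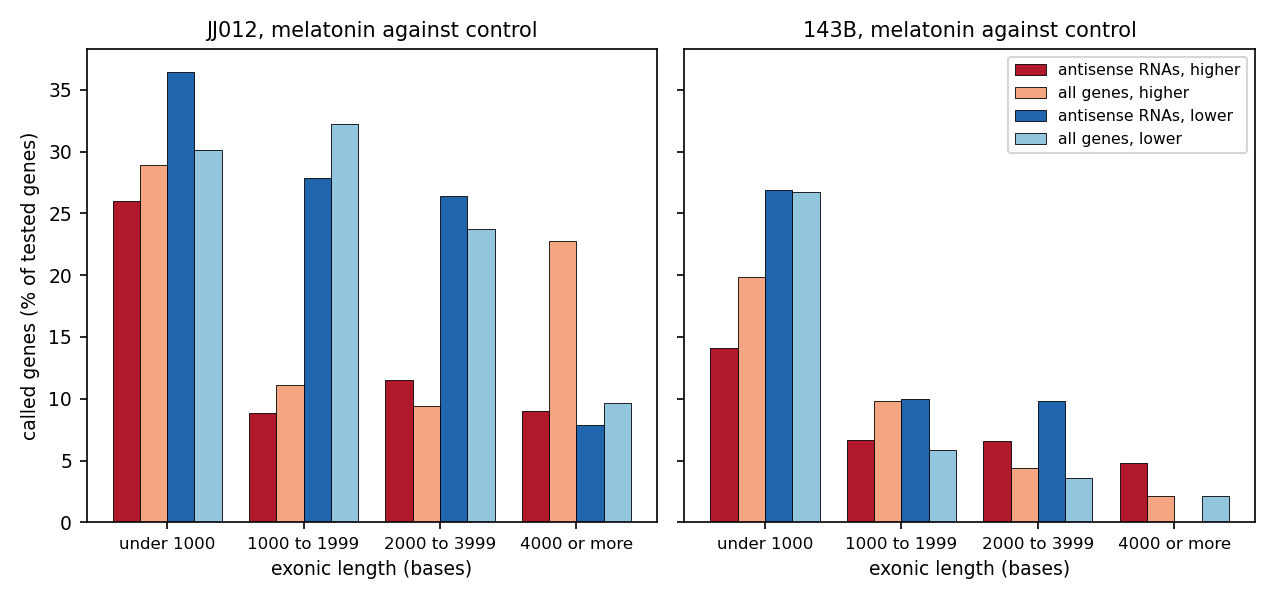
Share of tested genes called higher or lower with melatonin (% of tested genes, bars from 0) in 4 classes of exonic length, for the antisense RNAs and for all genes, in JJ012 and 143B. In JJ012 members of 4000 bases or more were called higher in 8.99%, all genes of that length in 22.8%.

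Of 28 widely studied antisense RNAs listed for this work, 15 were members. OIP5-AS1, an abundant RNA known for binding microRNA miR-7, had 1434 counts (5.89 FPKM) in the JJ012 control and 3011 (14.72 FPKM) with melatonin, a log2 fold change of 1.19, but 12.85 and 12.94 FPKM in 143B. CDKN2B-AS1, also called ANRIL, which overlaps the cell cycle inhibitor gene CDKN2B and is linked to Polycomb silencing of that locus, went from 3.06 to 6.12 FPKM in JJ012 (log2 fold change 0.81) and was at 0 counts in both 143B libraries. CDKN2B itself was at 0 FPKM in all 4 libraries. The call of CDKN2B-AS1, which has 20420 exonic bases, was lost with the length trend removed (0.42). HIF1A-AS3 meets the 3' end of HIF1A, the gene of the hypoxia-inducible factor subunit, and went from 0.11 FPKM (11 counts) to 1.57 FPKM (128 counts) in JJ012, beside 24.28 and 19.55 FPKM in 143B. NNT-AS1, at the 5' end of the mitochondrial transhydrogenase gene NNT, went from 4.86 to 8.84 FPKM in JJ012 and had 1.98 and 1.52 FPKM in 143B. ZEB1-AS1, at the 5' end of the transcription repressor gene ZEB1, went from 5.07 to 9.46 FPKM in JJ012 (log2 fold change 0.79) and had 2.13 and 3.0 FPKM in 143B.

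LOXL1-AS1, at the 5' end of the lysyl oxidase-like gene LOXL1, was lower in JJ012, with 3.43 and 1.76 FPKM, and had 7.4 and 8.17 FPKM in 143B. FOXP4-AS1 was called lower in 143B, from 1.16 FPKM (27 counts) to 0.44 FPKM (11 counts), just at the limit with a log2 fold change of -0.58. The other widely studied members that were not called in either line were FGD5-AS1, MCM3AP-AS1, SLC16A1-AS1, MAPKAPK5-AS1, TP73-AS1, THUMPD3-AS1 and STARD4-AS1. MCM3AP-AS1 had 1.31 and 1.71 FPKM in JJ012 and 1.29 and 1.37 FPKM in 143B. MAPKAPK5-AS1 had between 5.71 and 6.97 FPKM in the 4 libraries. THUMPD3-AS1 had 4.92 and 5.73 FPKM in JJ012 and 3.2 and 4.73 FPKM in 143B. SLC16A1-AS1, named after the lactate transporter gene SLC16A1, had 0.64 and 1.03 FPKM in JJ012 and 1.89 and 1.47 FPKM in 143B, and it passed the limit in JJ012 on CPM (0.63), with TMM factors (0.70), on TPM (0.73) and with a pseudocount of 0.1 FPKM (0.61). STARD4-AS1, named after a cholesterol transfer protein gene, had 1.17 and 0.77 FPKM in JJ012 and 2.11 and 1.77 FPKM in 143B. TP73-AS1, which GENCODE types as a transcribed unitary pseudogene, was a 143B transcript, at 5.02 and 5.43 FPKM there and 0.04 and 0.02 FPKM in JJ012.

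The antisense RNAs of the HOX clusters, arrays of genes that encode positional transcription factors, were mostly lower with melatonin in JJ012. Of 6 tested, 5 were lower and 0 higher, where 18.6% of all genes were lower and 19.6% higher. These numbers became 3 lower and 1 higher with the length trend removed, and 4 lower and 1 higher on TPM. All genes gave 16.4% lower and 18.1% higher with the trend removed, and 19.9% and 33.0% on TPM. HOXC-AS3 had 249 counts (4.17 FPKM) and 52 (1.04 FPKM), HOXC-AS1 had 8.79 and 3.98 FPKM, HOXC-AS2 had 8.76 and 5.37 FPKM, and HOXB-AS1 had 4.17 and 1.71 FPKM. HOXB-AS4 went from 1.63 FPKM (21 counts) to 0.65 FPKM (7 counts). In 143B, 3 of 6 were lower (2 on CPM), namely HOXB-AS2, HOXB-AS3 and HOXC-AS1, where 6.65% of all genes were. HOXC-AS3 was at 0 and 1 counts in 143B, while HOXB-AS4 was higher in 143B than in JJ012, at 11.57 and 15.94 FPKM. Apart from HOXC-AS1 and HOXB-AS2, these RNAs lie outside the naming rule and were named after their values were seen.

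The same comparison in 143B gave smaller differences. Of 261 members tested, 22 were higher and 33 lower with melatonin, 8.43% and 12.6%, against 6.09% higher and 6.65% lower of all 14135 genes tested. The median log2 fold change was -0.02 for the members and 0.03 for all genes. The counting interval excluded 0 for 111 members, 58 above and 53 below, where 52% of all genes had such an interval, and 45 of the 55 called members had an interval on the called side. Of 71 members tested through a single library, 26 were called. The direction of the split turned with the scaling, for the members and for all genes. On CPM, without the division by length, 40 of 290 members were higher and 27 lower (13.8% and 9.31%). All genes gave 7.36% and 6.49% on that scale. On CPM with TMM factors, 47 of 299 members were higher and 27 lower (15.7% and 9.03%), where all genes gave 8.21% and 6.67%. Changing the scale to CPM also changes which genes pass the limit of 1.

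Among members with at least 50 counts in a 143B library, the largest rises were of GTF3C2-AS2, TSPEAR-AS1, WARS2-AS1, ELOA-AS1 and SLC9A3-AS1. The highest value without that minimum was 1.12, of SEMA3B-AS1 (3 and 18 counts), named after its values were seen. GTF3C2-AS2, whose start is next to that of the RNA polymerase III factor gene GTF3C2, went from 1.96 FPKM (106 counts) to 4.32 FPKM (253 counts), a log2 fold change of 0.85, while GTF3C2 had 6.07 and 6.84 FPKM. TSPEAR-AS1 went from 0.32 FPKM (12 counts) to 1.29 FPKM (52 counts). WARS2-AS1, at the 5' end of the mitochondrial tryptophanyl-tRNA synthetase gene WARS2, had 1458 counts (7.65 FPKM) and 2831 (13.74 FPKM). Its log2 fold change was 0.77, and the interval of its log2 CPM ratio was 0.75 to 0.94. ELOA-AS1, which spans the elongin A gene, went from 0.47 FPKM (24 counts) to 1.47 FPKM (82 counts). SLC9A3-AS1 had a log2 fold change of 0.68, with 1356 and 2388 counts.

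The largest falls in 143B with that minimum were of PSMD6-AS2, VIM-AS1, CARS1-AS1, HOXB-AS2 and RPL30-AS1. Members with fewer counts fell further, down to a log2 fold change of -1.21 for SPON1-AS1 (5 and 0 counts), named after its values were seen. PSMD6-AS2, which meets the 3' end of a proteasome subunit gene, had 325 counts (8.33 FPKM) and 158 (3.75 FPKM), a log2 fold change of -0.97, while PSMD6 stayed at 10.01 and 10.12 FPKM. CARS1-AS1, inside the cysteinyl-tRNA synthetase gene CARS1, went from 2.39 FPKM (102 counts) to 1.15 FPKM (53 counts). HOXB-AS2 had 5.66 FPKM (76 counts) and 3.24 FPKM (47 counts). RPL30-AS1, inside a ribosomal protein gene, had 3.58 FPKM (113 counts) and 1.93 FPKM (66 counts).

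Few members were called in both lines. Of 183 tested in both, 7 were called the same way and 8 in opposite ways, where all 11822 genes tested in both gave 2.5% the same way and 2.07% in opposite ways. The number in opposite ways rested on the scale, at 27 with a pseudocount of 0.1 FPKM, 40 of 337 on TPM, 16 of 240 on CPM and 0 at a limit of 1. The 4 that were lower in both were VIM-AS1, HOXC-AS1, TMEM92-AS1 and TRIM7-AS2, and the 3 that were higher in both were PPP1R12A-AS2, LAMC1-AS1 and PKD1-AS1. VIM-AS1 had the most counts of these in 143B, with 136 (4.03 FPKM) in the control and 67 (1.84 FPKM) with melatonin, and its intervals lay below 0 in both lines, from -2.97 to -1.91 in JJ012 and from -1.58 to -0.70 in 143B. HOXC-AS1 had 100 and 38 counts in JJ012, and 41 and 24 counts in 143B, where the log2 fold change was -0.67 and the call was lost on CPM (-0.58). PPP1R12A-AS2, named after a myosin phosphatase subunit gene, had 13 and 27 counts in JJ012 and 16 and 33 counts in 143B, and its call in 143B was lost on CPM (0.54). LAMC1-AS1, inside a laminin chain gene, had 7 and 16 counts in JJ012 and 20 and 40 counts in 143B, and its calls were lost on CPM in both lines (0.55 and 0.56). TMEM92-AS1, TRIM7-AS2 and PKD1-AS1, which the naming rule does not include, had 0 to 14, 6 to 14 and 15 to 34 counts in 143B.

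**Figure D3:**
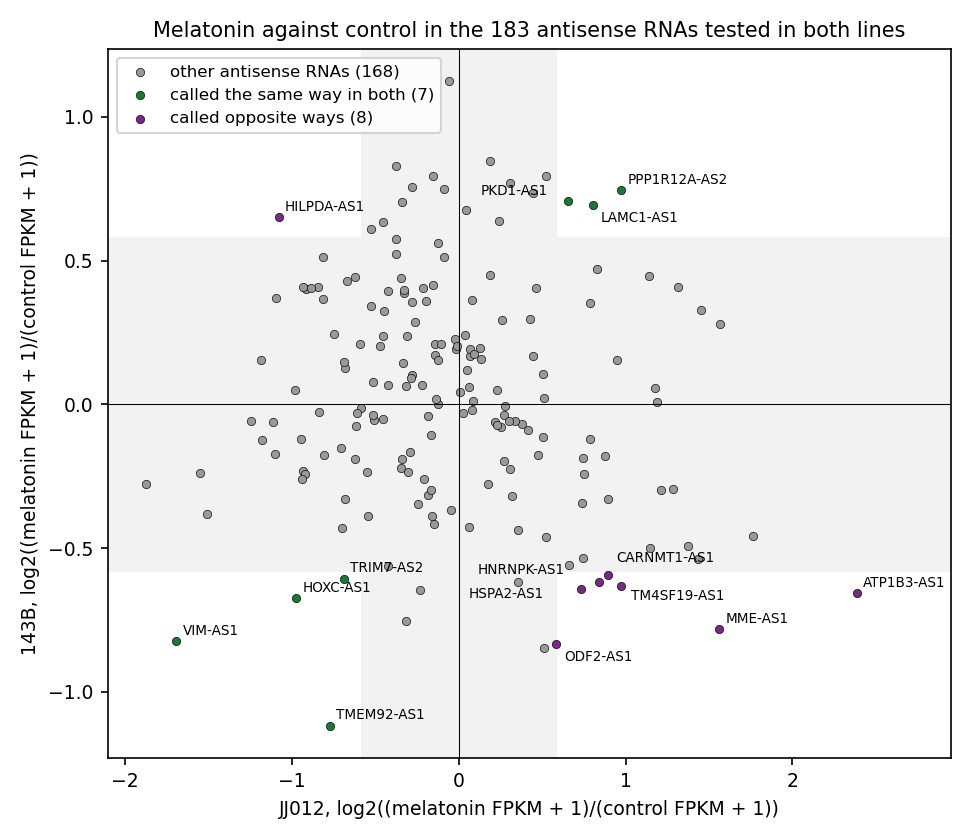
Log2 fold change with melatonin in JJ012 (horizontal) and 143B (vertical) of the 183 antisense RNAs tested in both lines, on FPKM + 1, with the range below the limit of 0.58 in grey. VIM-AS1 lies at -1.69 and -0.82, at the lower left, and ATP1B3-AS1 at 2.39 and -0.66, at the far right.

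The second question was whether an antisense RNA and the gene it is named after changed together. In JJ012, both were tested in 289 pairs, of which 24 (8.30%) were called the same way and 14 (4.84%) in opposite ways. For 2557 other pairs of overlapping genes on opposite strands, 10.2% were called the same way and 4.07% in opposite ways, so the named pairs were close to this background. The median log2 fold change was -0.15 for the antisense RNAs and 0.13 for their named genes. Where the antisense RNA was higher, the named gene was higher in 14 of 42 pairs and lower in 1. Where the antisense RNA was lower, the named gene was lower in 10 of 68 pairs and higher in 13. Across the 289 pairs, which share the 2 libraries and are not independent, Pearson's r was 0.18 and Spearman's rho 0.14.

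The pairs that were lower together in JJ012 included VIM-AS1 and VIM, FIBCD1-AS1 and FIBCD1, and UPK1A-AS1 and UPK1A. VIM had 610.99 and 224.27 FPKM in JJ012, and 1676.32 and 1517.09 FPKM in 143B, where only VIM-AS1 was called. FIBCD1-AS1, at the start of a chitin-binding receptor gene, had 28 counts (3.15 FPKM) and 1 count (0.13 FPKM), a log2 CPM ratio of -4.56 with an interval of -9.91 to -1.96, and FIBCD1 went from 19.78 to 3.39 FPKM. UPK1A-AS1, inside a uroplakin gene, went from 18.87 FPKM (293 counts) to 5.98 FPKM (78 counts), and UPK1A from 7.41 to 1.41 FPKM. LIF-AS2 and LIF were higher together, with LIF at 6.94 and 22.43 FPKM. HIF1A was higher with HIF1A-AS3, at 77.77 and 192.42 FPKM. LOXL1 was lower with LOXL1-AS1, at 47.03 and 6.78 FPKM. TM4SF1 was lower with TM4SF1-AS1, at 42.46 and 24.51 FPKM, although in 143B TM4SF1 was higher, at 104.03 and 162.72 FPKM, with TM4SF1-AS1 at 8 counts and 1 count.

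Of the 14 pairs called in opposite ways in JJ012, 13 had a lower antisense RNA and a higher named gene. These were 13 of the 68 pairs with a lower antisense RNA. In the 179 pairs whose antisense RNA was not called, the named gene was higher in 46 and lower in 26. The number of opposite pairs was 28 with a pseudocount of 0.1 FPKM, 31 of 358 on TPM, 24 of 300 with TMM factors and 0 at a limit of 1. URB1-AS1, whose window with URB1 is printed above, had 215 counts (12.63 FPKM) and 88 (6.15 FPKM), and URB1, a ribosome biogenesis gene, went from 5.57 to 13.31 FPKM. SPEN-AS1 went from 2.57 FPKM (122 counts) to 1.03 FPKM (41 counts), and SPEN, which encodes a transcriptional repressor, from 3.64 to 10.88 FPKM. WAC-AS1 went from 14.58 FPKM (949 counts) to 6.89 FPKM (377 counts), and WAC from 11.43 to 19.94 FPKM. SBNO1-AS1 went from 1.55 FPKM (67 counts) to 0.52 FPKM (19 counts), and SBNO1 from 5.88 to 10.82 FPKM, with the antisense call lost once the length trend was removed (-0.46). In these 4 pairs the antisense RNA starts within 440 bases of the start of its named gene.

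**Figure D4:**
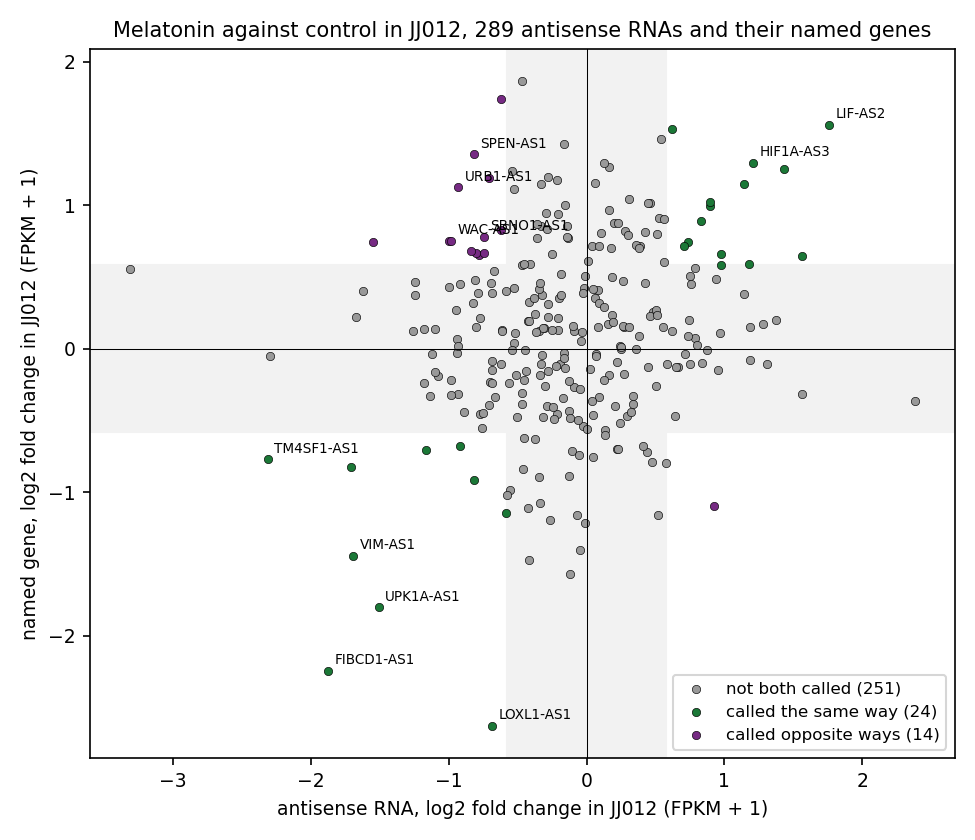
Log2 fold change with melatonin in JJ012, on FPKM + 1, of 289 antisense RNAs (horizontal) and of the genes they are named after (vertical), with the range below the limit of 0.58 in grey. The 14 pairs called in opposite ways lie at the upper left except for 1 at the lower right.

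Calls in JJ012 were also counted by the position of the member, where all genes gave 18.6% lower and 19.6% higher. Of the 15 tested members that ran away from the named gene with a gap of up to 1000 bases, 8 were lower and 1 higher, with a median of -0.59, which was 6 lower and 1 higher (median -0.37) with the length trend removed. Of 101 inside the named gene, 25 were higher and 26 lower, with a median of -0.07. Of 143 at the 5' end, 14 were higher and 31 lower, and of 55 at the 3' end, 8 were higher and 10 lower. In 143B the 10 tested members that ran away from a close named gene had 0 lower and 1 higher, beside 6.65% lower and 6.09% higher of all genes. On TPM such members gave 1 lower and 5 higher of 13, where all genes gave 15.5% lower and 13.2% higher. By RefSeq starts, 82 pairs tested in JJ012 began within 1000 bases of each other, of which 3 were called the same way and 6 in opposite ways. All named pairs gave 8.30% and 4.84% there, and other overlapping pairs 10.2% and 4.07%. In 143B, 56 such pairs gave 1 and 0, where all named pairs gave 1.74% and 0% and other overlapping pairs 0.722% and 0%.

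In 143B, 4 of 230 pairs (1.74%) were called the same way and 0 in opposite ways, against 0.722% and 0% of 2216 other overlapping pairs. TMEM147-AS1 went from 0.95 FPKM (74 counts) to 2.03 FPKM (171 counts), and TMEM147, which encodes a membrane protein of the endoplasmic reticulum, from 6.4 to 11 FPKM. LAMC1-AS1 and LAMC1 were also higher together, with LAMC1 at 44.67 and 69.17 FPKM. TM4SF19-AS1 and TM4SF19 were lower together in 143B, with TM4SF19 at 34.4 and 17.55 FPKM, and higher together in JJ012, with TM4SF19 at 20.22 and 30.76 FPKM.

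The third comparison set the untreated lines side by side, with the JJ012 control against the 143B control. These are the controls of the comparisons above, so the differences are not independent of them. Of 393 members tested, 202 were higher and 103 lower in JJ012, 51.4% and 26.2%, where all 16929 genes tested gave 41.3% and 27.4%. The median log2 difference was 0.61 for members and 0.29 for all genes. When centred on the median gene, 166 members were higher and 128 lower (42.2% and 32.6%), where all genes gave 32.6% and 34.5%. With the length trend removed, 130 were higher and 139 lower (33.1% and 35.4%), where all genes gave 29.8% and 32.7%. On CPM with TMM factors, 179 of 376 were higher and 121 lower (47.6% and 32.2%), where all genes gave 36.9% and 34.9%. Of 334 pairs, 133 (39.8%) had the antisense RNA and the named gene called the same way and 48 (14.4%) in opposite ways, where 2838 other overlapping pairs gave 33.5% and 11.4%. Across these pairs Pearson's r was 0.48 and Spearman's rho 0.46.

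The members with the largest excess in JJ012, among those with at least 50 counts in a control, were TMEM132D-AS1, TSPEAR-AS2, B3GALT1-AS1, TSPEAR-AS1 and ZFPM2-AS1. TMEM132D-AS1 had 1926 counts in the JJ012 control and 0 in the 143B control, at least 531-fold higher in CPM against a floor of 3 counts in the 143B library. TMEM132D itself had 0.1 FPKM and 0 FPKM. B3GALT1-AS1, which meets a galactosyltransferase gene, had 330 counts (12.63 FPKM) and 0, at least 90.9-fold higher, and 20.36 FPKM with melatonin in JJ012. TSPEAR-AS2 had 1021 counts (17.56 FPKM) in JJ012 and 4 counts (0.08 FPKM) in 143B, and TSPEAR-AS1 had 14.1 and 0.32 FPKM, with TSPEAR at 8.9 and 0.06 FPKM. ZFPM2-AS1, which meets the gene of a GATA-factor partner protein, had 17.01 and 0.68 FPKM in the controls and 25.61 FPKM in JJ012 with melatonin.

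With the same minimum, the members with the largest excess in 143B were HIF1A-AS3, SLCO4A1-AS1, PSMD6-AS2, KLC1-AS1 and HNRNPK-AS1. HIF1A-AS3 had 1946 counts (24.28 FPKM) in the 143B control and 11 (0.11 FPKM) in the JJ012 control, 214-fold higher in CPM in 143B, with a log2 interval of -8.75 to -6.90 for JJ012 over 143B. SLCO4A1-AS1, inside an organic anion transporter gene, had 20.92 and 28.9 FPKM in 143B and 0.44 and 2.18 FPKM in JJ012, and SLCO4A1 had 343.59 and 445.05 FPKM in 143B and 7.37 and 17.52 FPKM in JJ012. KLC1-AS1 had 39.45 FPKM in the 143B control and 4.37 FPKM in the JJ012 control. HNRNPK-AS1 had 28.08 and 3.2 FPKM, although 79.0% of its exonic bases lie over exons of the other strand, where HNRNPK, the gene of an abundant RNA-binding protein, had 161.57 and 67.35 FPKM.

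**Figure D5:**
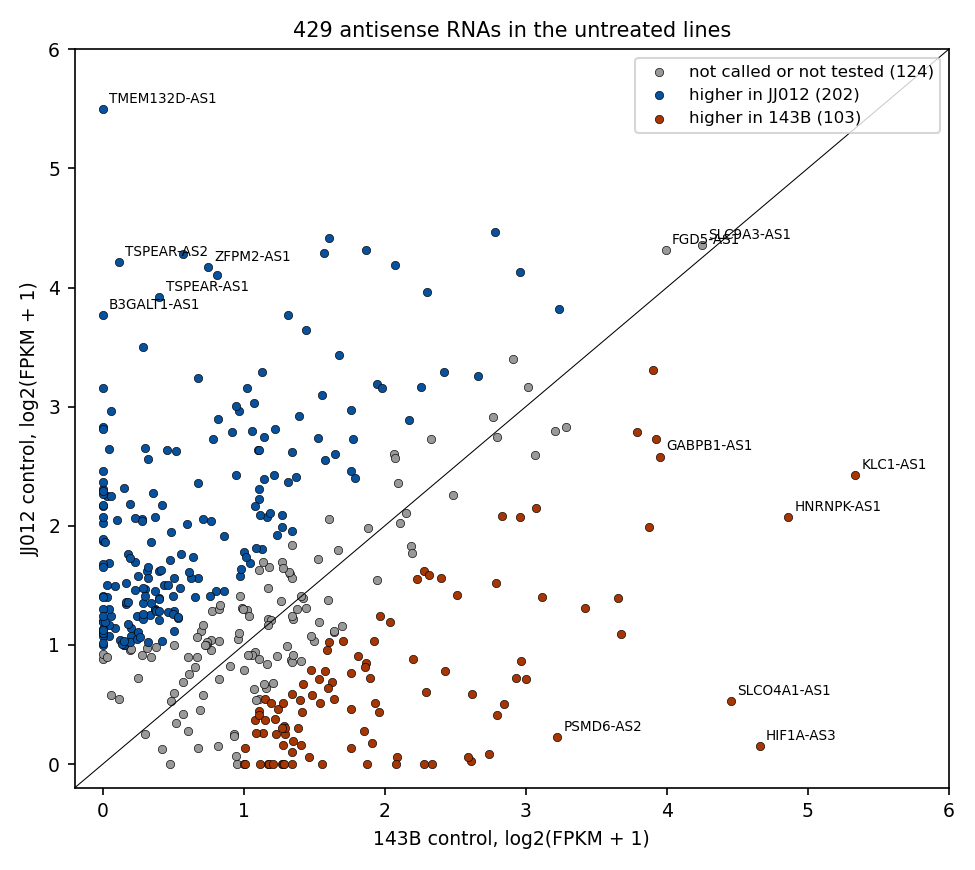
Level of the 429 antisense RNAs in the untreated lines, as log2(FPKM + 1) in 143B (horizontal) and JJ012 (vertical), with the line of equal level. TMEM132D-AS1 stands at 44.13 FPKM in JJ012 and 0 in 143B, and HIF1A-AS3 at 0.11 and 24.28 FPKM.

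Factors that process or degrade antisense transcripts were read from lists of genes. Of the nuclear exosome targeting and poly(A) tail exosome targeting genes (5 tested), the exosome genes (13) and the cleavage and polyadenylation genes (16), 0 were called in JJ012. On TPM, 2, 4 and 2 of these were higher there, and with TMM factors 0, 2 and 1. Of all genes in JJ012, 33.0% were higher on TPM and 22.5% with TMM factors. In 143B the exosome subunit gene EXOSC4 was higher, at 2.77 and 5.67 FPKM. Of 8 nonsense-mediated and cytoplasmic decay genes, 4 were higher and 0 lower in JJ012. All genes there gave 19.6% higher and 18.6% lower, and those of 4000 bases or more gave 22.8% higher. SMG1, the kinase gene of nonsense-mediated decay, which can share reads with near-identical pseudogene copies, had 5.39 and 19.16 FPKM, UPF1 had 8.93 and 15.27 FPKM, and the 5'-to-3' exonuclease gene XRN1 had 4.2 and 8.33 FPKM. Of 6 genes that handle double-stranded RNA, 3 were higher in JJ012, namely DICER1 (2.18 and 5.89 FPKM), DROSHA (7.6 and 12.03 FPKM) and ADAR (24.94 and 40.43 FPKM). These genes are long, and with the length trend removed 2 of the 8 and 1 of the 6 were called, and on TPM 7 and 4. Of all genes of 4000 bases or more in JJ012, 14.5% were higher with the trend removed and 38.1% on TPM. In 143B, 0 of 8 and 0 of 5 were called, where all genes gave 6.09% higher and 6.65% lower.

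Other classes of long noncoding RNA were set beside the antisense RNAs in JJ012. All genes there gave 19.6% higher and 18.6% lower, and the antisense RNAs 14.2% and 24.8%. Of 273 LINC genes, 24 were higher and 92 lower (8.79% and 33.7%). Of 179 divergent transcripts (symbols ending in -DT), 14 were higher and 48 lower (7.82% and 26.8%). Of 23 small nucleolar RNA host genes, 9 were higher and 5 lower. Protein-coding genes gave 2054 higher and 1853 lower of 11534. The median log2 fold change was -0.26 for LINC genes, -0.28 for divergent transcripts, -0.15 for antisense RNAs and 0.02 for protein-coding genes, and the median exonic lengths were 2421, 2008, 2015 and 5236.5 bases. In 143B, 10 LINC genes were higher and 16 lower of 114 (8.77% and 14.0%). There, 12 divergent transcripts were higher and 2 lower of 94 (12.8% and 2.13%). All genes in 143B gave 6.09% higher and 6.65% lower, and the antisense RNAs 8.43% and 12.6%.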

How the data were processed

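RNA from JJ012 and 143B cells was sequenced as 4 poly(A)-selected libraries, 1 per condition, and the suffix T in a column name was taken to mean melatonin. The authors deposited raw counts per gene and library, and FPKM that equal these counts divided by exonic length and by the total counts of the library. The submitters' processing notes name cutadapt 1.9.1, HISAT2 2.2.1, HTSeq 0.6.1, DESeq2 and hg38. The annotation release and the strand setting of the counting are not given in the sources used here. Functional annotation columns were not used. Some genes that met the naming rule or stood in a list are not reported here.

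Log2 fold changes were computed on deposited FPKM plus 1, for genes with at least 1 FPKM in either library compared, and called at 0.58. This scale understates changes of low genes. The log2 ratio of CPM (counts scaled to the library total) has an exact (Clopper-Pearson) 95% interval, and a fold against 0 counts uses a floor of 3 counts. Totals ran from 15889564 to 19218343 counts. The members and lists were chosen with earlier results of these data known. Members named were those with the 6 highest mean levels, the 5 largest changes each way per line and between lines, those called in both lines, pairs called together, 28 listed widely studied RNAs and those beside the limit of 1 FPKM. Calling was tested on simulated data with counting error only, where changes were put into genes with more counts than the median member. That test does not cover the detection of changes in members with few counts, or the spread between replicates. Alternatives were other pseudocounts, filters, limits and scalings, including TMM factors from edgeR 4.0.16 in R 4.3.3. A length trend, the running median of log2 fold change over exonic length, was removed as a further alternative. Python 3.11.15, pandas 2.3.3, numpy 2.4.6, scipy 1.17.1 and matplotlib 3.10.9 were used. Gene types and exon overlaps came from GENCODE release 29, and promoter windows from RefSeq.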

Additional observations from a re-analysis of the deposited data

Results flagged for a closer look

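The 8 antisense RNAs that were called in both lines but in opposite directions were examined again. Their number rested on the scale, at 27 with a pseudocount of 0.1 FPKM, 40 on TPM, 16 on CPM or with TMM factors, 12 without a filter, 3 with a filter of 5 FPKM and 0 at a limit of 1. The difference is the log2 fold change with melatonin in JJ012 less that in 143B, and it was not tested, since each condition was 1 library. ATP1B3-AS1, inside a sodium-potassium pump subunit gene, had the largest difference, 3.04, with 3 and 39 counts in JJ012 and 37 and 23 counts in 143B. Its log2 CPM ratio in JJ012 was 3.95 with an interval of 2.30 to 6.29, and its call in 143B was lost on CPM (-0.51). MME-AS1 differed by 2.34, with 4 and 36 counts in JJ012 and 19 and 6 in 143B. TM4SF19-AS1 differed by 1.60 and had the most counts, 231 and 414 in JJ012 and 480 and 322 in 143B, with intervals of 0.86 to 1.33 and -0.90 to -0.48. CARNMT1-AS1 differed by 1.49, with 9 and 24 counts in JJ012 and 31 and 18 in 143B. HNRNPK-AS1 differed by 1.46, with 24 and 41 counts in JJ012 and 174 and 120 in 143B, and its call in 143B was lost with the length trend removed (-0.49). ODF2-AS1 differed by 1.42, with 7 and 12 counts in JJ012 and 10 and 3 in 143B, where both intervals included 0. HSPA2-AS1, named after a heat shock protein gene, differed by 1.38, with 17 and 37 counts in JJ012 and 86 and 52 in 143B. HILPDA-AS1, which lies on the same strand as the hypoxia-inducible lipid droplet gene HILPDA in the authors' table, differed by -1.73, with 87 and 29 counts in JJ012 and 25 and 49 in 143B.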

How the results depend on the processing

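With 1 library per condition, no replicate could be left out. No paired analysis was possible because the groups share 1 replicate number only. With at most 61 counts for the median member, small differences of most members were not detectable. Of 570 values of named members under the alternative scalings, 505 moved by no more than the half-width of their counting interval and 65 by more. None of the called values changed sign, which a change of pseudocount cannot bring about. The interval is wide at few counts. FIBCD1-AS1 in JJ012 is among the 505, though it went from -1.88 to -3.82 with a pseudocount of 0.1 FPKM. Calls that were lost are not counted here, so these numbers are no measure of stability. The main numbers called were 137 in JJ012, 55 in 143B and 305 between untreated lines, 7 the same way in both lines, 24, 4 and 133 pairs the same way, and 221 and 111 members with intervals excluding 0.

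A pseudocount of 0.1 FPKM gave 96 called in 143B and 42 pairs the same way in JJ012. A filter of 5 FPKM gave 46, 9 and 81 called in JJ012, in 143B and between untreated lines, 0 the same way in both lines, 6, 1 and 29 pairs, and 70 and 26 intervals in JJ012 and 143B. TPM gave 206 and 122 called in JJ012 and 143B, 23 the same way in both lines, and 51 and 9 pairs. CPM gave 38 and 7 pairs and 4 members the same way in both lines, and TMM factors 8 pairs in 143B. A limit of 1 gave 41, 4 and 201 called, 0 the same way in both lines, and 7, 0 and 75 pairs. The members whose span overlaps no other gene gave 9, 2 and 12 called, 1 the same way in both lines, 1, 0 and 7 pairs, and 9 and 4 intervals. Chosen after seeing the data, members with no exonic base over opposite exons gave 48, 21 and 88 called, 3 the same way in both lines, 5, 1 and 37 pairs, and 59 and 30 intervals, and a minimum of 50 counts gave 28 called in 143B and 2 the same way in both lines. Members in opposite ways in both lines, 8 in the main count, ranged from 0 at a limit of 1 to 40 on TPM, and opposite pairs in JJ012, 14 in the main count, from 0 to 31 under the same settings. The smaller sets hold fewer members by construction, and for the other settings the cause was not tested. The other settings left each of these numbers within 1.5 times its main value.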

Other observations

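Antisense RNAs named after zinc finger genes, a large family of DNA-binding repressors, were looked at after their values had been seen. Of 21 such members, all tested in JJ012, 6 were lower and 0 higher with melatonin, with a median log2 fold change of -0.21, where all genes gave 18.6% lower and 19.6% higher. Of 17 tested ZNF genes that these RNAs are named after, 4 were higher and 1 lower, with a median of 0.21, and of all 364 tested ZNF genes 77 were higher and 17 lower, with a median of 0.20. With the length trend removed, 5 of the antisense RNAs were lower and 2 higher, with a median of 0.01, and on TPM 5 were lower and 3 higher. All genes gave 16.4% lower and 18.1% higher with the trend removed, and 19.9% and 33.0% on TPM. ZNF436-AS1 had 547 counts (9.81 FPKM) in the JJ012 control and 263 (5.62 FPKM) with melatonin, and ZNF436 had 12.05 and 8.96 FPKM. ZNF529-AS1 had 219 counts (3.11 FPKM) and 90 (1.52 FPKM), while ZNF529 went from 3.27 to 8.73 FPKM. ZNF528-AS1 had 152 and 46 counts, and ZNF114-AS1 27 and 8. In 143B, 10 were tested, of which ZNF687-AS1 was higher (7 and 25 counts) and ZNF775-AS1 lower (7 counts and 1 count).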
